A study of Mus musculus with 2 samples.

Results

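Imprinted genes are expressed mainly from the copy inherited from a single parent, and many of them set the pace of growth before birth and of stem cells after it. Their parental marks are DNA methylation at control regions, and Polycomb repressive complex 2 (PRC2), in which *Ezh2* is the main methyltransferase for the repressive mark H3K27me3, adds to silencing at some of these loci. Paternally expressed *Igf2* drives growth through the insulin-like growth factor receptor, while maternally expressed genes such as *Igf2r* and *Grb10* restrain it. The 10 genes described here were chosen by symbol, with earlier results of these data known. They are *Igf2*, *Igf2r*, *Grb10*, *H19*, *Meg3*, *Rian*, *Dlk1*, *Peg3*, *Ndn* and *Zdbf2*, and all 10 were found among the 24421 gene symbols counted.

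The RNA came from mouse hematopoietic stem cells (HSCs), the marrow cells that sustain all blood lineages, of strain C57BL/6. Marrow from CD45.2 donors with 1 Cre-ERT allele, a recombinase that tamoxifen switches on, and either Ezh2 +/+ (WT) or floxed *Ezh2* (labelled Ezh2 Δ/Δ, Ezh2 KO) was given to irradiated CD45.1 recipients, and each genotype received 5 daily doses of 100 µl tamoxifen, 10 mg/ml. HSCs were sorted 1 month afterwards as lineage-negative cells with Kit, Sca-1 and CD150 and without CD34, CD48 and Flt3, so transplantation, Cre-ERT and tamoxifen were common to the groups. CD45.2 is not among the sort markers named, so remaining host cells may be included. There was 1 library per group. The labels give neither the age nor the sex of the mice, nor the promoter that drives Cre-ERT, nor how many mice a library holds, and no difference below has a replicate check.

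The libraries held 5763118 (WT) and 4157280 (labelled Ezh2 KO) gene counts. The targeted gene did not check the label. *Ezh2* had 166 and 129 counts, WT first, and the log2 ratio of the Ezh2 KO-labelled library over WT was 0.08 (95% counting interval -0.27 to 0.42), and gene-level counts do not show the loss of single exons, so the library is called by its label. HSC markers were present, with all 15 listed genes above 3 counts in each library and *Kit*, a receptor that HSCs depend on, at 1052 CPM (gene counts scaled to the same total of 1000000) in WT and 1057 CPM in the Ezh2 KO-labelled library. The list did not stay level throughout. The log2 ratio of *Slamf1*, which encodes the sort marker CD150, was -0.62 (-0.85 to -0.41), and those of *Fgd5* and *Ctnnal1* were -0.59 and -0.70, while *Ly6a*, which encodes Sca-1, was at 0.32. Of the markers the sort excludes, *Cd34* had 957 and 829 counts, WT first, and a log2 ratio after scaling of 0.23 (0.10 to 0.37). *Flt3* had 98 and 140 counts and a log2 ratio of 0.95 (0.57 to 1.34), and *Cd48* had 12 and 11 counts and a log2 ratio of 0.29 (-1.01 to 1.62). The libraries also differed in sex-linked RNA, with 801 and 4 counts of *Xist* and 0 and 682 counts over Y chromosome genes, WT first. Genotype, sex, mouse and library preparation cannot be told apart.

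The 10 genes fell into a detected and a barely detected set. Only 4 of them were tested, and 0 were called different between the libraries. Of all genes tested, 2.8% were called higher and 2.3% lower. *Grb10*, *Ndn* and *Igf2r* had from 120 to 682 counts, and the 7 others had 9 counts or fewer in each library. A count of 3, taken as the floor, corresponded to 0.521 CPM in WT and 0.722 CPM in the Ezh2 KO-labelled library. Together the 10 genes held 1212 counts in WT and 1253 in the Ezh2 KO-labelled library, or 210.3 and 301.4 CPM. The 3 detected genes carried all but 8 of the WT counts and all but 23 of the others. Reads were not split by parental allele, so these values do not show from which copy the RNA came. In bulk RNA, more cells that express a gene and more RNA per cell cannot be told apart either.

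**Figure D1:**
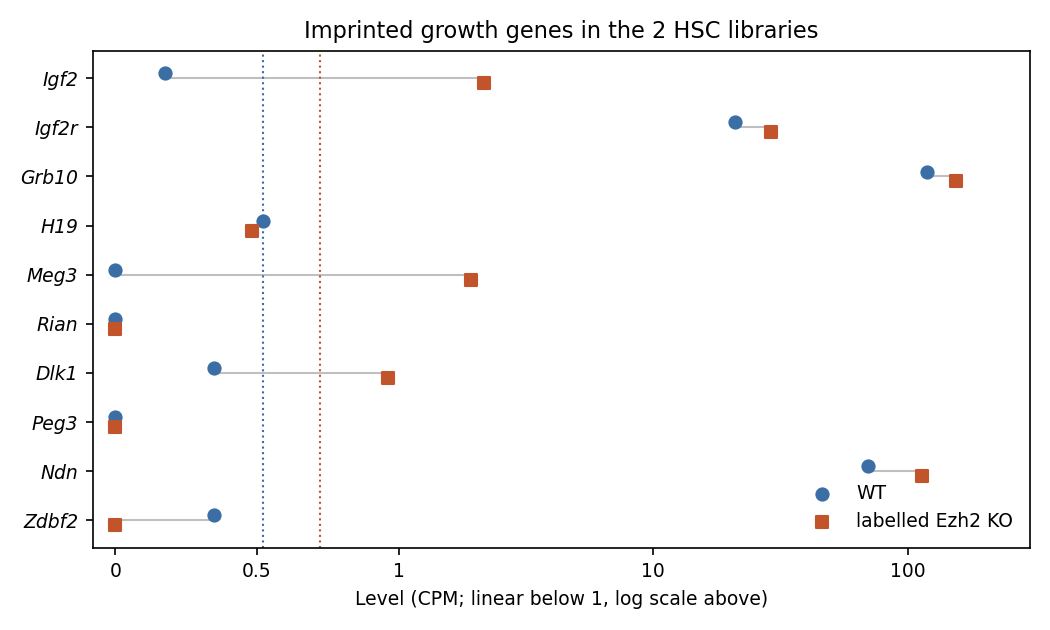
Level of each of the 10 genes (horizontal axis, CPM, linear below 1 and on a log scale above) in the WT library (circles) and the Ezh2 KO-labelled library (squares), 1 library each. Dotted lines mark the level of 3 counts in the library of the same colour (0.521 and 0.722 CPM). *Grb10*, *Ndn* and *Igf2r* lie far to the right of these lines, and *Rian* and *Peg3* lie at 0.

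Promoter sequences are shown for the detected genes and for *Meg3*. Of the 10, *Meg3* alone had no WT count and more than 3 in the other library. DNA methylation falls at CG pairs. These sequences were not matched to the control regions that carry the imprint, and their methylation was not measured. Each is the 250 bases before a RefSeq transcript start (GRCm38.p6), read 5′ to 3′ on the strand of the gene, and capitals mark CG. They lie at chr7:62348027-62348276 (+ strand, *Ndn*), chr11:12037421-12037670 (- strand, the more CG-rich of 2 starts of *Grb10*), chr17:12769707-12769956 (- strand, *Igf2r*) and chr12:109540746-109540995 (+ strand, the first of 2 starts of *Meg3*).

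Ndn: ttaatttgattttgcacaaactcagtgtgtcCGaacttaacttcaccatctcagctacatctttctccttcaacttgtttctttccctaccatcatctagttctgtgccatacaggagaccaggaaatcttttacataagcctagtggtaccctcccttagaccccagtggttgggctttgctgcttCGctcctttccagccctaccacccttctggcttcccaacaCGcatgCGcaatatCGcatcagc

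Grb10: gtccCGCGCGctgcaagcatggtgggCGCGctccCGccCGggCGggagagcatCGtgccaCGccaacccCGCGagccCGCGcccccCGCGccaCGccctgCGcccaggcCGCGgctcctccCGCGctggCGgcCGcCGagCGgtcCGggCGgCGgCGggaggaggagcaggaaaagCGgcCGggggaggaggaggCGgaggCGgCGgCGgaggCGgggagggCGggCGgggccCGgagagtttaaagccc

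Igf2r: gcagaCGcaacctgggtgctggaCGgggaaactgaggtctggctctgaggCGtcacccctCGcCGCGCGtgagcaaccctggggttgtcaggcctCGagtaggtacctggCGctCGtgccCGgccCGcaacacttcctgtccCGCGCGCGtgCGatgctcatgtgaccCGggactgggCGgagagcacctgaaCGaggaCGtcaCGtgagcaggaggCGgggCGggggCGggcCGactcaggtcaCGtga

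Meg3: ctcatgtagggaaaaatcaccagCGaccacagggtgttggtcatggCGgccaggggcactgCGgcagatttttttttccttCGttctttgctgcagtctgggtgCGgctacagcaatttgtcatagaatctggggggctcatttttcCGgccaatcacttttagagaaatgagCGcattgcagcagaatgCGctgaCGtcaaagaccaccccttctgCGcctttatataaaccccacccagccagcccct

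The windows shown were not alike in CG content, which for *Grb10* and *Meg3* depended on the start chosen. *Grb10* had 40 CG in the 250 bases shown and *Igf2r* had 27, while *Ndn* had 5 and *Meg3* had 10. The other start of *Grb10* had 8 CG, and the other start of *Meg3* had 0. Over all 32851 promoter windows of that length the median was 6. At least 10 CG were found in 37.8% of them and in 7 of the 15 windows of 9 of the 10 genes. The GC box GGGCGG, on either strand, was present at the *Grb10* and *Igf2r* windows shown and absent from the *Ndn* and *Meg3* windows, against 32.7% of all windows. The other *Grb10* start lacked it. The letters TATAAA, on either strand, were found at *Meg3* and in 12.4% of all windows. These are matches of letters and not measured binding sites.

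*Igf2r* and *Grb10* are the maternally expressed growth restrainers of the set. *Igf2r* (ENSMUSG00000023830.14, chromosome 17, 12682406 to 12769664, - strand, protein coding) encodes the mannose 6-phosphate receptor that takes up Igf2 and delivers it to lysosomes. It had 120 counts in WT and 120 in the Ezh2 KO-labelled library, which after scaling by DESeq2 size factors (1.17 and 0.858) were 103.0 and 139.8 normalised counts. The log2 ratio, always the Ezh2 KO-labelled library over WT and taken after adding 1 to each normalised count, was 0.44 (95% interval 0.06 to 0.82). Its adjusted p from the exact binomial test of the 2 counts was 0.0567. *Grb10* (ENSMUSG00000020176.17, chromosome 11, 11930508 to 12038683, - strand, protein coding) encodes an adaptor that binds and damps the insulin and IGF receptors. It had 682 and 639 counts, or 585.3 normalised counts in WT and 744.6 in the Ezh2 KO-labelled library. The log2 ratio of *Grb10* was 0.35 (0.19 to 0.51), with an adjusted p of 0.000146 in the exact test. Neither gene reached the 2-fold needed for a call.

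*Ndn* was the member with the clearest difference. It encodes necdin, a paternally expressed MAGE-family protein that restrains proliferation and has been linked to HSC quiescence. The annotated gene (ENSMUSG00000033585.5, chromosome 7, 62346569 to 62350262, + strand, protein coding) consists of 1 exon, so reads from unspliced RNA or DNA cannot be told from its mRNA. The RefSeq start used for the promoter above lies inside this GENCODE model. *Ndn* had 402 counts in WT and 471 in the Ezh2 KO-labelled library, or 345.0 and 548.9 normalised counts. The library labelled Ezh2 KO was thus higher by a factor of 1.59 (95% interval 1.39 to 1.82), a log2 ratio of 0.67 (0.47 to 0.87), with an adjusted p of 3.56e-10 in the exact test. With the fold threshold set at 1.5 in place of 2 *Ndn* was called higher, and with an assumed coefficient of variation (CV) of 0.2 between libraries it was not (adjusted p = 1 by the edgeR exact test).

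A call required an adjusted p below 0.01 and at least 2-fold. By that rule 2.8% of the 12588 genes tested were called higher and 2.3% lower. Of the 10 imprinted growth genes 4 were tested and 0 were called. So few genes cannot be read against these shares. *Ndn*, *Grb10* and *Igf2r* each had an unadjusted p under 0.05 in the exact test, as had 5140 of all genes tested. *Igf2* had one as well, but it entered the test through its count in the Ezh2 KO-labelled library and adds no support. That test compares these 2 libraries and not the conditions. Genes of similar level gave a second background. Of the 2626 genes tested with a mean normalised count within 1.5-fold of that of *Ndn*, 0.457% had a log2 ratio at least as far above 0. The same share was 5.5% of 1891 genes around *Grb10* and 14.0% of 2429 genes around *Igf2r*. *Ndn* therefore lay near the upper edge of genes of its level, and *Igf2r* did not. Since the genes were chosen with earlier results of these data known, these shares only describe where they lay.

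**Figure D2:**
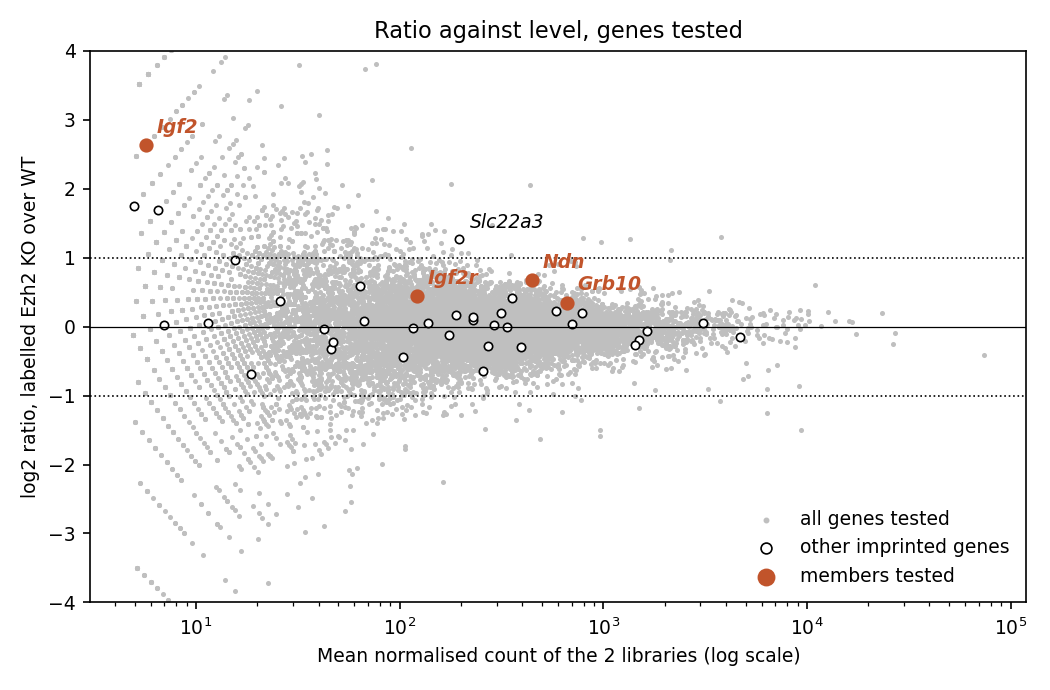
Log2 ratio of the Ezh2 KO-labelled library over WT (vertical axis) against the mean normalised count (horizontal axis, log scale) for all genes tested (grey), with the 4 members tested in orange and 35 other imprinted genes as open circles. Dotted lines mark 2-fold, and 50 genes lie outside the plotted range of 4 log2 units. *Igf2* sits among low counts where ratios scatter widely, and *Ndn* (0.67) sits near the top of the grey cloud at its level.

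Levels were also compared between genes per kilobase of merged exon in GENCODE M21. *Ndn* stood first, with 18.9 CPM per kilobase in WT (95% counting interval 17.1 to 20.8) and 30.7 in the Ezh2 KO-labelled library (28.0 to 33.6). *Grb10* followed with 13.02 (12.1 to 14.0) and 16.9 (15.6 to 18.3), and *Igf2r* with 2.24 (1.85 to 2.67) and 3.10 (2.57 to 3.71). The intervals of these 3 genes did not overlap within a library, so their order held in each. The exon models behind the deposited counts may be shorter than the merged exons, which would change these levels, and that of *Ndn* in particular, whose RefSeq start is internal.

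*Igf2* and its neighbour *H19* share an imprinted domain on distal chromosome 7, where *Igf2* is read from the paternal copy and the noncoding RNA *H19* from the maternal copy. *Igf2* (ENSMUSG00000048583.16, 142650766 to 142666816, - strand, protein coding) encodes the fetal growth factor. It had 1 count in WT and 9 in the Ezh2 KO-labelled library, a ratio of 12.2 (95% counting interval 1.69 to 536). *Igf2* was tested only because its count in the Ezh2 KO-labelled library lifted the mean over 1 CPM, and its adjusted p in the exact test was 0.0124, above the threshold of 0.01. *H19* (ENSMUSG00000000031.16, 142575529 to 142578143, - strand, lincRNA) had 3 counts and 2 counts, at or under the floor in each library. The microRNA genes *Mir675*, inside *H19*, and *Mir483*, inside *Igf2*, were listed at 0 in each library. The study's methods name no library made for small RNAs, so these zeros do not show that the microRNAs were absent.

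*Dlk1*, *Meg3* and *Rian* lie in the imprinted domain on distal chromosome 12, which has been tied to HSC maintenance through its maternally expressed noncoding RNAs. *Dlk1* (ENSMUSG00000040856.17, 109452823 to 109463336, + strand, protein coding) encodes a paternally expressed transmembrane relative of the Notch ligands. It had 2 counts in WT and 4 in the Ezh2 KO-labelled library, a ratio of 2.72 (0.389 to 30.02). *Meg3* (ENSMUSG00000021268.17, 109541001 to 109571726, + strand, lincRNA) had 0 and 8 counts, and the 95% counting interval of the ratio began at 2.32. With the WT count set at the floor of 3 and the 8 counts taken as exact, the ratio of *Meg3* would be 3.62. The interval allows a smaller one. The mean level of *Meg3* was under 1 CPM, so it was not tested, and without that filter it was called higher (adjusted p = 0.00658 in the exact test). *Rian* (ENSMUSG00000097451.10, 109603940 to 109661716, + strand, processed transcript), which hosts small nucleolar RNAs, had 0 counts in each library. Between *Dlk1* and *Dio3* the files list 73 symbols, and *Dlk1* and *Meg3* were the only ones with a count, while all 65 listed microRNA and small nucleolar RNA genes there were at 0. No library made for small RNAs is named in the study's methods, so the zeros at these 65 genes do not show absence. The library labelled Ezh2 KO held 12 counts over this domain and the WT library 2.

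*Peg3* and *Zdbf2* completed the set. *Peg3* (ENSMUSG00000002265.16, chromosome 7, 6703892 to 6730431, - strand, protein coding), a paternally expressed zinc finger gene, had 0 counts in each library, which allows a level of up to 0.521 CPM in WT and 0.722 CPM in the other library. *Zdbf2* (ENSMUSG00000027520.15, chromosome 1, 63273265 to 63314576, + strand, protein coding), a paternally expressed gene tied to growth after birth, had 2 counts and 0, at or under the floor in each library. No difference was detectable at this depth for *H19*, *Rian*, *Peg3* and *Zdbf2*.

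Counts under or at the floor in WT were read against all such genes. Of the genes with 0 counts in WT, 2.09% of 10280 had more than 3 counts in the Ezh2 KO-labelled library, and of *Meg3*, *Rian* and *Peg3* this held for *Meg3*. Of the genes with 1 to 3 counts in WT, 19.7% of 1206 had more than 3 counts in that library, and of *Igf2*, *H19*, *Dlk1* and *Zdbf2* it held for *Igf2* and *Dlk1*. None of the 10 genes was above the floor in WT and at or under it in the Ezh2 KO-labelled library. These counts are too few for a statement on the set.

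The 10 genes were then set beside 60 other imprinted genes counted in the files. In that list 22 genes were at 0 in each library and 35 were tested. The median log2 ratio of those 35 was 0.03, against -0.003 over all genes tested. By the sign of the log2 ratio, 21 of the 35 were above 0 and 14 below. Of the 35, 1 was called higher and 0 lower, with 14 at an unadjusted p under 0.05 in the exact test. *Mcts2* (2 and 7 counts, WT first) and *Ddc* (3 and 9) entered the test through the Ezh2 KO-labelled library, as *Igf2* did. Both are among the 21 above 0 and the 14 with a low p, and add no support. *Ascl2* (4 and 1 counts) and *Nnat* (5 and 1) lay the other way and were not tested. The gene called was *Slc22a3*, an organic cation transporter of the *Igf2r* domain, with 133 counts in WT and 238 in the Ezh2 KO-labelled library and a log2 ratio of 1.27 (0.97 to 1.60). It was not called when a CV of 0.2 or 0.4 was assumed, or at a threshold of 4-fold.

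The most abundant of the other imprinted genes differed little. *Gnas*, the stimulatory G protein subunit, had 4914 and 4424 normalised counts, WT first, and a log2 ratio of -0.15 (-0.21 to -0.09). *Cd81*, a tetraspanin, had a log2 ratio of 0.06 (-0.02 to 0.13). That of *Tspan32*, another tetraspanin, was -0.06 (-0.16 to 0.04), and that of the histone chaperone gene *Nap1l4* was -0.20 (-0.31 to -0.09). *Cdkn1c*, the imprinted cell-cycle inhibitor p57, was chosen after its values were seen and had 632 and 546 counts, a log2 ratio of 0.23 (0.06 to 0.40). Among these imprinted genes with more than 3 counts in each library, the ratio of *Ndn* was exceeded only by those of *Slc22a3* and *Zrsr1*, the latter with 12 and 18 counts and named after its values were seen.

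**Figure D3:**
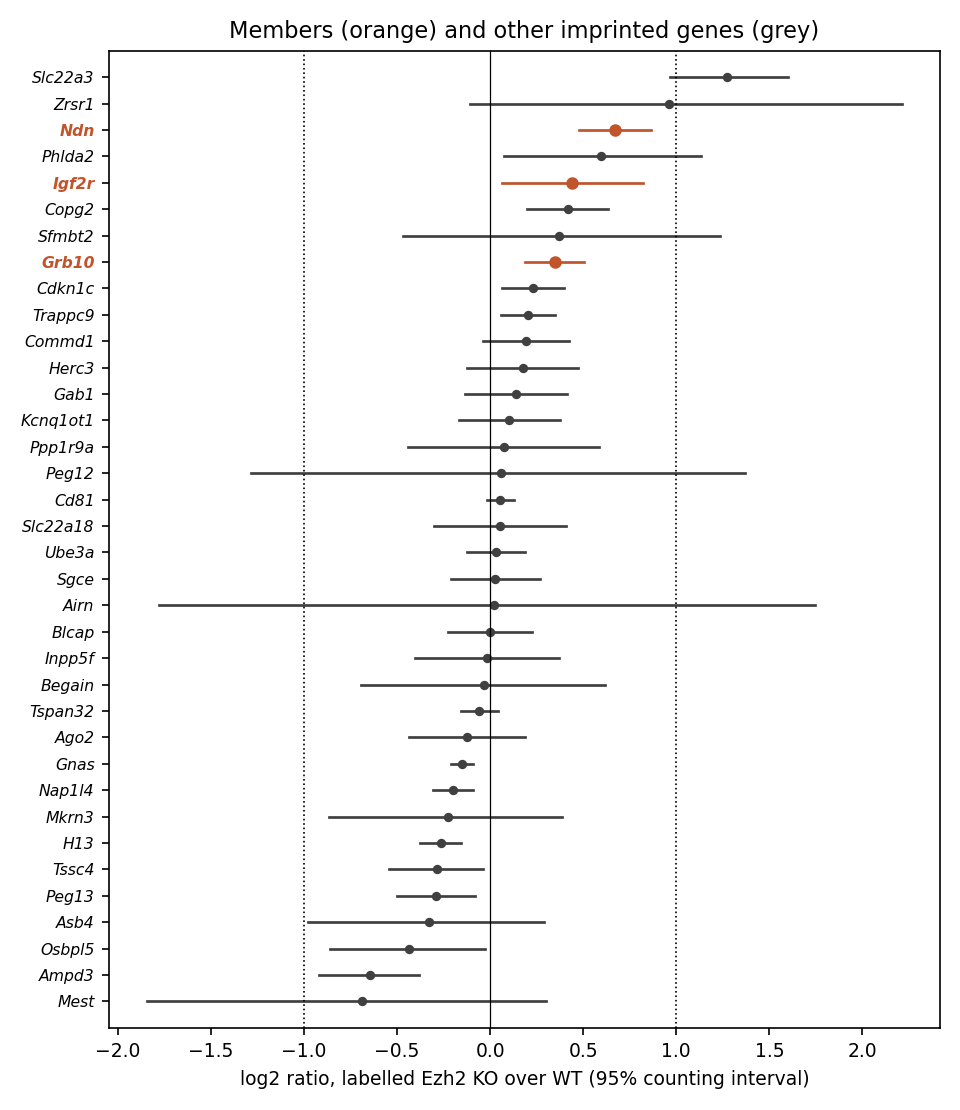
Log2 ratio of the Ezh2 KO-labelled library over WT with its 95% counting interval for the 36 imprinted genes tested that had more than 3 counts in each library, 3 members in orange and 33 others in grey. Dotted lines mark 2-fold. *Ndn*, *Igf2r* and *Grb10* lie to the right of 0 with intervals that leave 0 out, and *Slc22a3* (1.27) is farthest to the right.

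Genes beside the detected members did not move as a block. Within 250 kb of *Igf2r*, 8 genes were tested and *Slc22a3*, 174.7 kb away, was the only one called. The antisense RNA *Airn*, which overlaps *Igf2r* on the opposite strand and represses it on the paternal copy, had 8 counts in WT and 6 in the Ezh2 KO-labelled library, and since no source states whether counting used strand, its reads and those of *Igf2r* cannot be told apart with certainty. On the other side *Mrpl18* had a log2 ratio of 0.39 (0.18 to 0.60) and *Tcp1*, which overlaps *Mrpl18* and was named after its values were seen, one of -0.29 (-0.41 to -0.17). Beside *Grb10* the nearest gene above the floor was *Ddc*, 32.4 kb away, with 3 and 9 counts. Farther out, *Ikzf1*, the lymphoid regulator Ikaros, also named after its values were seen, had a log2 ratio of 0.05 (-0.17 to 0.26). Beside *Ndn*, the paternally expressed *Mkrn3* at 67.3 kb had 59 and 37 counts and a log2 ratio of -0.23 (-0.87 to 0.39), and its interval did not reach that of *Ndn*. *Mrpl23*, the nearest gene above the floor at lower coordinates than *H19*, had a log2 ratio of -0.01 (-0.20 to 0.19), and *Eef1b2* near *Zdbf2* one of 0.10 (-0.03 to 0.22). No gene above the floor other than *Dlk1* and *Meg3* was found within 250 kb of the chromosome 12 members, and all 12 symbols that near *Peg3* were at 0.

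**Figure D4:**
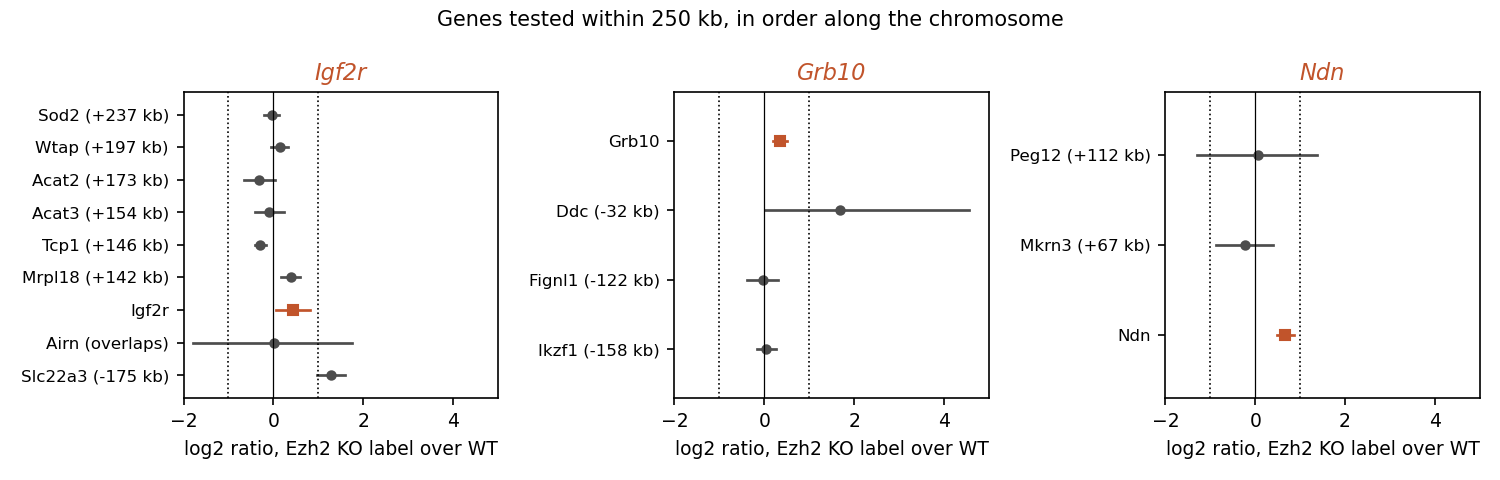
Log2 ratio of the Ezh2 KO-labelled library over WT (horizontal axis) with its 95% counting interval for *Igf2r*, *Grb10* and *Ndn* (orange squares) and each gene tested within 250 kb (grey circles), in order along the chromosome with the distance from the member beside each name. Dotted lines mark 2-fold, which only *Slc22a3* and *Ddc* exceed, the latter on 3 and 9 counts.

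The insulin-like growth factor pathway, in which *Igf2*, *Igf2r* and *Grb10* act, was read through 34 further genes. Of these 22 were tested, with a median log2 ratio of 0.05, and 0 were called in either direction, although 11 had an unadjusted p under 0.05 in the exact test. The ligand and receptor genes were chosen after their values were seen. *Igf1*, the postnatal ligand, had 37 counts in WT and 46 in the Ezh2 KO-labelled library, a log2 ratio of 0.74 (0.10 to 1.42). *Igf1r*, the receptor that carries the growth signal of Igf1 and Igf2, had 301 and 342 counts and a log2 ratio of 0.62 (0.40 to 0.85). The ratio of the insulin receptor gene *Insr* was 0.36 (0.06 to 0.66). Over the whole list, the interval lay above 0 for 7 of the 22 genes and below 0 for 4, against 19.2% and 20.8% of all genes tested.

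The abundant members of the pathway list moved less or the other way. *Igfbp4*, a secreted protein that holds IGFs away from their receptor, had 2342 and 1243 normalised counts, WT first, and a log2 ratio of -0.91 (-1.02 to -0.81), just short of 2-fold. The log2 ratio of *M6pr*, the other mannose 6-phosphate receptor, was -0.15 (-0.25 to -0.05). The kinase genes *Akt1* and *Akt2* had log2 ratios of -0.21 (-0.29 to -0.12) and 0.15 (0.04 to 0.26).

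Factors that set or keep imprints gave no call among 15 tested of 20 listed, with a median log2 ratio of -0.20 and 9 at an unadjusted p under 0.05 in the exact test. The log2 ratio of *Trim28*, the corepressor that guards imprints, was -0.11 (-0.23 to 0.01), and that of the maintenance methyltransferase gene *Dnmt1* was -0.20 (-0.33 to -0.07). *Ehmt2*, the H3K9 methyltransferase G9a, had a log2 ratio of -0.45 (-0.63 to -0.27). *Ctcf*, whose protein insulates *Igf2* from enhancers on the maternal copy, had 520.0 and 685.2 normalised counts, a log2 ratio of 0.40 (0.23 to 0.56). Among 11 PRC2 subunits and accessory genes 0 were called, with a median of 0.11 and 4 at an unadjusted p under 0.05 in the exact test. The 4 most abundant of them, *Rbbp7*, *Rbbp4*, *Ezh1* and *Mtf2*, had log2 ratios of -0.04, 0.34, -0.15 and 0.16.

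Markers of other cells differed between the libraries along with these values. Summed over each list, 8 eosinophil genes came to 2.08 CPM in WT and 774.8 CPM in the Ezh2 KO-labelled library, with *Prg2* and *Epx* at 0 in WT and at 2030 and 1000 counts in the other library. The sums were 2098 and 3918 CPM for 10 neutrophil genes, 1792 and 2282 CPM for 10 erythroid genes, and 48.4 and 95.7 CPM for 9 early B lymphoid genes. Most of the erythroid sums came from *Car2* alone, at 1713 CPM in WT and 2066 CPM in the Ezh2 KO-labelled library. The log2 ratio of *Car2* was 0.24 (0.20 to 0.28). Of 8 erythroid genes tested, the interval lay above 0 for 5, below 0 for 0 and around 0 for 3. The globin genes *Hbb-bs* and *Hba-a1* were at 0 in each library. *Cd79b* made up most of the B lymphoid sums, at 43.6 CPM in WT and 55.1 CPM in the Ezh2 KO-labelled library. Its log2 ratio was 0.31 (0.04 to 0.57). Called higher were 5, 5, 3 and 4 genes of these lists in turn, and 0 were called lower. The neutrophil list was split, with the interval above 0 for 7 genes, below 0 for 1 and around 0 for 2. *Elane* was the gene below 0, with a log2 ratio of -0.76 (-0.94 to -0.58), short of 2-fold. *Prtn3* and *Ctsg* had log2 ratios of -0.07 (-0.19 to 0.05) and -0.01 (-0.42 to 0.39). Of the eosinophil genes, *Siglecf* and *Ccr3* had 5 and 4 counts each, WT first, and were not tested. In a list of 9 genes written as low in the sort gate, although it includes the pan-blood gene *Ptprc*, *Itgam* was called higher and the sums were 416.1 and 505.1 CPM. The 15 stromal and endothelial markers came to 100.6 and 134.0 CPM, with *Col1a2* and *Cxcl12* called higher and with *Pdgfra*, *Lum*, *Kitl* and *Cdh5* at 0 in each library. The most abundant of them, *Emcn*, had a log2 ratio of 0.06 (-0.24 to 0.36), and *Pdgfrb* one of -0.44 (-0.95 to 0.04). *Adipoq* had 5 and 0 counts, WT first, and *Col1a1* and *Col3a1* each had 1 and 0. The part of such cells in the higher *Ndn*, *Grb10*, *Igf2r*, *Igf2* and *Meg3* values was not tested.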

How the data were processed

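RNA-seq counts of 2 libraries, 1 WT and 1 labelled Ezh2 KO, were used. The authors deposited raw counts per gene symbol, without normalisation. Per the study's methods and the submitters' processing notes, reads were aligned to mm10 with TopHat2 2.0.13 and Bowtie2 2.1.0 with iGenomes annotation, and StringTie was named for raw counts, while the deposited files close with the 5 special entries that htseq-count writes. The counter and its strand setting are therefore uncertain. These entries were left out of totals. Reads in no feature made up 44.9% of entries in WT and 44.1% in the Ezh2 KO-labelled library, ambiguous reads 0.532% and 0.539%, and reads aligned more than once 10.7% and 12.3%. PCR reads carry no molecular identifiers, so intervals and floors cover counting error only.

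Counts were divided by DESeq2 1.42.0 size factors (R 4.3.3). With 1 library per group, neither the edgeR nor the DESeq2 model can estimate a spread, so the counts of every gene averaging 1 CPM or more were compared by a conditional binomial test, exact and two-sided, across all genes with Benjamini-Hochberg adjustment (Python 3.11.15, scipy 1.17.1). Intervals on ratios are 95% Clopper-Pearson intervals, those on levels exact Poisson intervals. Positions and exon lengths came from GENCODE M21 on GRCm38, the assembly of mm10, in which 24026 symbols were placed. Promoters came from RefSeq (GRCm38.p6). The 10 genes and all lists were chosen with earlier results of these data known. Genes to be named were the 10, the nearest gene with more than 3 counts on each side within 250 kb, the called genes and the 4 most abundant of the imprinted, pathway, control and PRC2 lists, and from each marker list the 2 most abundant and any at 0 in a single library. Of the marker lists not all such genes are given, and the marker genes named were picked with their values known. Alternatives were edgeR 4.0.16 TMM and total-count scaling, other filters, folds and pseudocounts, thinning, and the exact test of edgeR at CVs that were assumed.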

Additional observations from a re-analysis of the deposited data

Results flagged for a closer look

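Multiply aligned reads are left out of the gene counts, and they came to 12.3% of the entries in the Ezh2 KO-labelled library and 10.7% in WT. This was marked because the signal lies outside the gene counts and exceeded the control library. Which genes those reads belong to is not recorded, so their relation to the imprinted genes was not tested.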

How the results depend on the processing

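No paired analysis was possible because WT and Ezh2 KO are represented by a single library apiece, and for the same reason no library could be left out. The log2 ratios of *Ndn* (0.66 to 0.77), *Grb10* (0.34 to 0.38) and *Igf2r* (0.29 to 0.47) stayed above 0 under each scaling, each pseudocount and thinning. A pseudocount added to both normalised counts cannot change the sign of a ratio. None of these settings measures the spread between libraries. Of the 10 genes, 1 (*Meg3*, on 0 and 8 counts) was called higher without the filter on low counts and 1 (*Ndn*) at 1.5-fold, against 0 otherwise. Of the other imprinted genes, 0 were called higher at an assumed CV of 0.2 or 0.4 and at 4-fold, against 1, and 1 (*Ampd3*) was called lower at 1.5-fold, against 0. Over all genes, 353 higher and 290 lower became 41 and 22 at a CV of 0.2, 8 and 2 at a CV of 0.4, 96 and 115 at a minimum of 10 CPM, 626 and 636 at 1.5-fold and 169 and 96 at 4-fold. The CVs were assumed and not measured. Depth limits the 7 genes with 9 counts or fewer per library, *Igf2*, *H19*, *Meg3*, *Rian*, *Dlk1*, *Peg3* and *Zdbf2*.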
